A study of Mus musculus with 22 samples.

Results

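CD8+ T cells sorted from the livers of TG Aire+/- mice were compared with those of Aire-/- mice, by bulk RNA sequencing with 1 library on each side. These were 2 of the 22 samples of the series, chosen by their labels, and all 24786 genes of their table were read. Both genotypes were C57BL/6, 2 to 4 weeks old and untreated, and RNA came from 500000 sorted cells, per the labels. TG is taken here as the transgene in the series title, dnTGFβRII, a dominant-negative type II TGF-β receptor. In the mouse line of that name it is driven in T cells by Cd4 regulatory sequence without the CD8 silencer, so that CD4 and CD8 T cells both carry it. TG Aire+/- mice therefore have the transgene and 1 intact Aire allele, whereas Aire-/- mice have neither. Transgene and Aire alleles cannot be told apart in this comparison. The labels do not say whether animals were pooled. Another CD8+ T library, from TG Aire-/- mice, was read beside them. It shares the Aire-/- library as its control, so its values are given side by side and not as further support.

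TGF-β restrains the activation and effector differentiation of T cells through its type II receptor (Tgfbr2) and type I receptor (Tgfbr1) and the Smad proteins, and it favours Itgae, the αE integrin chain of tissue-resident cells. Aire drives tissue-restricted genes in the medullary epithelium of the thymus, where T cells that recognise them can be deleted. Activated CD8+ T cells of the liver make granzymes, perforin, Fas ligand and interferon-γ. Cells at the terminal end of that path carry Klrg1, Cx3cr1 and S1pr5 and depend on T-bet (Tbx21) and Zeb2.

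Levels are RPKM, a read count divided by gene length and by the library's mapped reads. A difference is that of log2(RPKM + 1), TG Aire+/- minus Aire-/-, and genes were described when the RPKM was at least 5 in 1 of the 2 libraries. A gene is called higher or lower where the difference reached 1. A gene that passed the minimum through 1 library alone was admitted by its high side, so the counts and medians of lists below describe these libraries and support nothing further. With 1 library a side there is no replicate, so no difference could be set against the spread between mice and no p-value was computed. In bulk RNA, fewer cells of a type and less RNA per cell cannot be told apart.

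Cd8a had 260 RPKM in TG Aire+/-, 172 in TG Aire-/- and 236 in Aire-/- cells. Cd8b1, the other CD8 chain, had 500 RPKM in TG Aire+/-, 416 in TG Aire-/- and 407 in Aire-/- cells. Cd3e, of the T cell receptor complex, had 138 RPKM in TG Aire+/-, 129 in TG Aire-/- and 114 in Aire-/- cells. All 3 were thus abundant in each library, with differences of 0.14, 0.30 and 0.27. Cd4 was low, at 2.67 RPKM in TG Aire+/-, 2.00 in TG Aire-/- and 1.97 in Aire-/- cells. The label of CD8+ T cells held by these genes. The genotypes could not be checked in these cells, in which Aire was at or near 0 in all 3 libraries. Tgfbr2 had 49.4 RPKM in TG Aire+/-, 31.3 in TG Aire-/- and 51.0 in Aire-/- cells, and the labels do not say whether reads of the transgene were counted there. In thymus, Aire had 10.2 to 13.6 RPKM in 3 TG Aire+/- libraries and 16.0 to 29.5 in 3 Aire-/- libraries. RNA over the whole gene was therefore not lower in the libraries labelled Aire-/-, and such a value does not show which exons remain.

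The Aire-/- library held more RNA of other cells than the TG libraries. Genes of erythroid cells summed to 619 RPKM in TG Aire+/-, 677 in TG Aire-/- and 37480 in Aire-/- cells, or 0.212% of all RPKM in TG Aire+/-, 0.209% in TG Aire-/- and 12.3% in Aire-/- cells. Hba-a1, an α-globin gene, alone had 128 RPKM in TG Aire+/-, 179 in TG Aire-/- and 8437 in Aire-/- cells. Neutrophil, basophil and mast cell genes summed to 42.7 RPKM in TG Aire+/-, 942 in TG Aire-/- and 2079 in Aire-/- cells. Of the 32 of these that passed the minimum, 30 did so through the Aire-/- library alone, and 30 were lower in TG Aire+/- cells. Among these was S100a9, a calprotectin subunit of neutrophils, which had 7.45 RPKM in TG Aire+/-, 290 in TG Aire-/- and 522 in Aire-/- cells. Macrophage, monocyte and dendritic cell genes summed to 413 RPKM in TG Aire+/-, 541 in TG Aire-/- and 1234 in Aire-/- cells. Lysozyme (Lyz2), of that list, had 4.84 RPKM in TG Aire+/-, 35 in TG Aire-/- and 359 in Aire-/- cells. That list shares some genes with the T cell lists, such as Lilrb4a, with 67.4 RPKM in TG Aire+/-, 61.5 in TG Aire-/- and 69.7 in Aire-/- cells. Sums of B and plasma cell genes were 61.4 RPKM in TG Aire+/-, 67.4 in TG Aire-/- and 205 in Aire-/- cells, and those of class II genes 66.2 RPKM in TG Aire+/-, 127 in TG Aire-/- and 309 in Aire-/- cells. Hepatocyte genes summed to 72.3 RPKM in TG Aire+/-, 80.8 in TG Aire-/- and 109 in Aire-/- cells, with albumin (Alb) at 0.838 RPKM in TG Aire+/-, 0.659 in TG Aire-/- and 3.04 in Aire-/- cells. Cat alone gave 33.4 RPKM of that sum in TG Aire+/-, 19.4 in TG Aire-/- and 30.3 in Aire-/- cells, and which cells it came from was not tested. Megakaryocyte and platelet genes summed to 10.6 RPKM in TG Aire+/-, 16.1 in TG Aire-/- and 89.4 in Aire-/- cells, and endothelial, stellate and biliary genes to 60.6 RPKM in TG Aire+/-, 55.2 in TG Aire-/- and 92.5 in Aire-/- cells. Among genes of CD4, regulatory, NKT and γδ T cells, the calls were few, with 5 of 22 past the minimum, 2 higher (Rora and Icos) and 0 lower, or 1 higher and 1 lower under the common sum. They summed to 87.2 RPKM in TG Aire+/-, 60.6 in TG Aire-/- and 62.1 in Aire-/- cells, of which Icos, which activated CD8+ T cells also express, gave 45.6 RPKM in TG Aire+/-, 31.7 in TG Aire-/- and 22.0 in Aire-/- cells. Foxp3, which defines regulatory T cells, had 1.45 RPKM in TG Aire+/-, 1.95 in TG Aire-/- and 1.59 in Aire-/- cells. Of 12 genes of double-positive thymocytes 5 passed, with 0 past 1 either way, and Rag1 had 0.0137 RPKM in TG Aire+/-, 0 in TG Aire-/- and 0.136 in Aire-/- cells. All 3 libraries held both Xist and Y-linked RNA, in unlike amounts. Xist had 28.5 RPKM in TG Aire+/-, 11.6 in TG Aire-/- and 12.2 in Aire-/- cells, and Ddx3y had 0.536 RPKM in TG Aire+/-, 2.95 in TG Aire-/- and 14.3 in Aire-/- cells. Eif2s3y, also Y-linked, had 1.13 RPKM in TG Aire+/-, 8.22 in TG Aire-/- and 17.4 in Aire-/- cells. The compared libraries thus differed in sex-linked RNA, and the sex of the animals cannot be told apart from genotype. The part of sex and of the other cells above in the differences below was not tested.

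**Figure D1:**
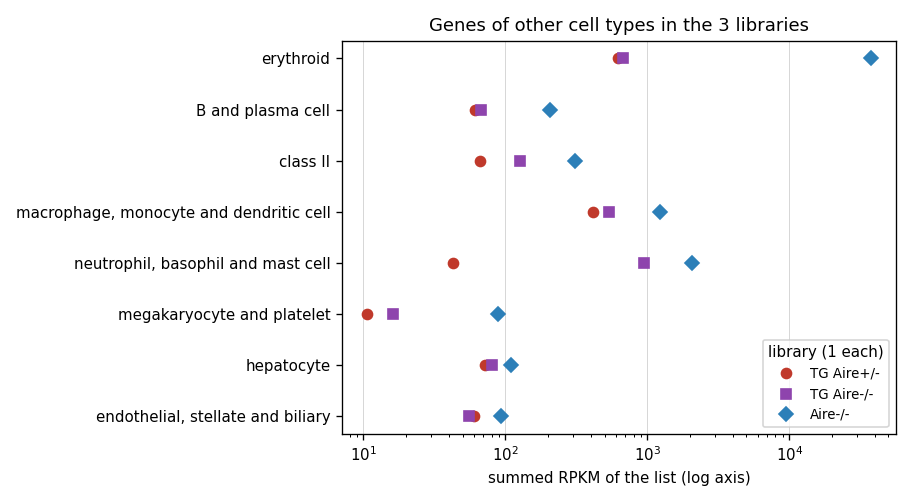
Summed RPKM of marker genes of other cell types (log axis) in the 3 liver CD8+ T libraries, 1 point a library. The Aire-/- diamond lies to the right of both TG points in every list shown, farthest in the erythroid list at 37480 RPKM.

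Of 7498 genes that passed the minimum, 189 (2.52%) were higher and 225 (3.0%) were lower in TG Aire+/- than in Aire-/- cells, or 414 (5.52%) in either direction. Each list count below is to be read beside these shares. The median difference was 0.08, and the middle 90% of genes lay between -0.67 and 0.75. Libraries were also scaled to the same sum over genes outside the lists of other cells. Differences then shift by up to -0.14, and by less for genes low in Aire-/- cells because of the pseudocount. Under that scaling 7648 genes passed, of which 124 were higher and 275 lower. Genes of other cell types and sex-linked genes made up 88 of the 225 lower genes and 3 of the 189 higher genes. With them set aside, 186 genes (2.52%) were higher and 137 (1.86%) lower. Of the genes called lower, 171 were under 5 RPKM in TG Aire+/- cells, so most lower calls are of genes at a low level in that library. Among 6626 genes with at least 5 RPKM in both libraries, 103 (1.55%) were higher and 54 (0.815%) lower. At the threshold, Ly6c1 and Krtcap2 stood just inside on the higher side at 1.0 each, and Spc25 at 0.998 and Tubb2a at 0.99 just outside it. On the lower side Ifi30 and Stx1a stood inside at -1.01 each, and Mir6935 and Gm10012 outside at -0.99 each.

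**Figure D2:**
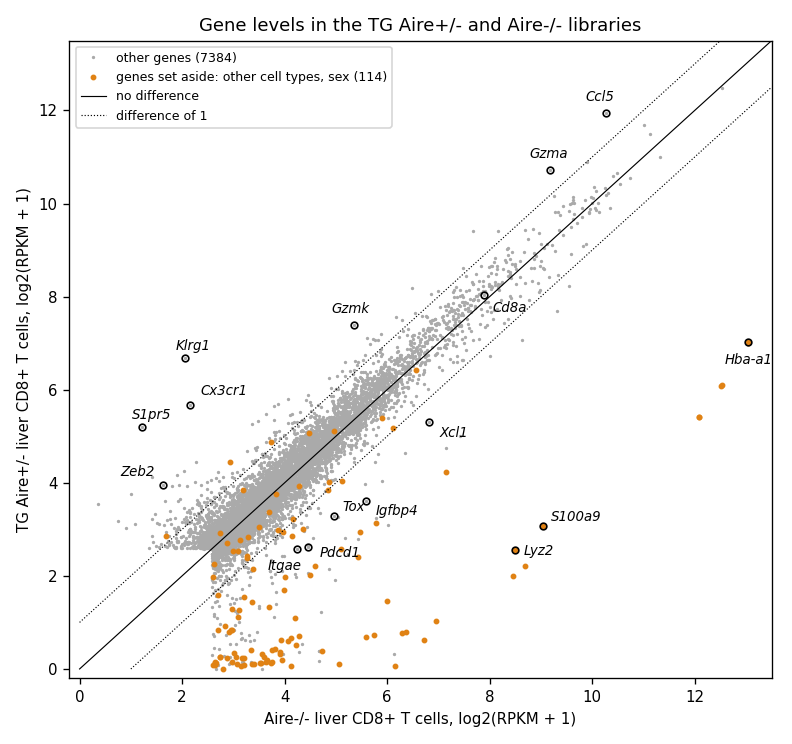
Each point is 1 gene, with log2(RPKM + 1) in TG Aire+/- cells on the vertical axis and in Aire-/- cells on the horizontal axis; dotted lines mark a difference of 1. Klrg1, S1pr5, Cx3cr1 and Zeb2 lie far above the diagonal, and globin, S100a9 and Lyz2 among the genes set aside lie far below it.

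The 3 largest differences on the higher side were those of the terminal effector genes Klrg1, S1pr5 and Cx3cr1. Klrg1, an inhibitory receptor that binds cadherins, had 102 RPKM in TG Aire+/-, 22.5 in TG Aire-/- and 3.18 in Aire-/- cells. It was 31.9-fold higher in TG Aire+/- than in Aire-/- cells, a difference of 4.62 (GRCm38 chromosome 6, 122270596 to 122282882). S1pr5, a sphingosine-1-phosphate receptor that directs cells out of tissue, had 35.6 RPKM in TG Aire+/-, 2.23 in TG Aire-/- and 1.32 in Aire-/- cells, a difference of 3.98 (chromosome 9, 21242912 to 21248443). Cx3cr1, the receptor of fractalkine, had 50.3 RPKM in TG Aire+/-, 5.23 in TG Aire-/- and 3.45 in Aire-/- cells, a difference of 3.53 (chromosome 9, 119901616 to 120069879). In these 3 genes the TG Aire+/- library stood far above both others. Zeb2, a transcriptional repressor that acts with T-bet in terminal effectors, had 14.5 RPKM in TG Aire+/-, 1.26 in TG Aire-/- and 2.10 in Aire-/- cells, a difference of 2.33 (chromosome 2, 44983632 to 45117395). Cx3cr1 and Zeb2 are also used by monocytes and macrophages, and Klrg1, S1pr5 and Zeb2 by NK cells. The macrophage gene Csf1r had 0.187 RPKM in TG Aire+/-, 1.05 in TG Aire-/- and 7.24 in Aire-/- cells. The NK receptor gene Ncr1 had 1.53 RPKM in TG Aire+/-, 0.0637 in TG Aire-/- and 2.77 in Aire-/- cells. The whole list of NK receptor genes, some of which CD8+ T cells also express, summed to 581 RPKM in TG Aire+/-, 452 in TG Aire-/- and 640 in Aire-/- cells, and 11 of its 19 genes that passed were above 0 in difference. The part of such cells in these genes was not tested.

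The other 8 leading higher genes have no single shared function. Gpx8, a glutathione peroxidase of the endoplasmic reticulum, had 10.7 RPKM in TG Aire+/-, 1.03 in TG Aire-/- and 0.276 in Aire-/- cells. Kcnj8, a potassium channel subunit, had 7.18 RPKM in TG Aire+/-, 0.842 in TG Aire-/- and 0.868 in Aire-/- cells, and As3mt, which methylates arsenic, had 18.2 RPKM in TG Aire+/-, 1.40 in TG Aire-/- and 3.09 in Aire-/- cells. In these 3 genes both Aire-/- genotypes, with and without the transgene, were low. Esm1, a secreted proteoglycan, had 12.5 RPKM in TG Aire+/-, 9.04 in TG Aire-/- and 1.0 in Aire-/- cells. Apobec2, of the cytidine deaminase family, had 16.4 RPKM in TG Aire+/-, 10.2 in TG Aire-/- and 1.65 in Aire-/- cells. Both TG libraries were above the Aire-/- library in these 2 genes. Esm1 (chromosome 13, 113209659 to 113218098) lies within the span given for Gzmk below, on the other strand. Whether reads of Gzmk were counted for Esm1 was not tested. The remaining 3, Tdg (a DNA glycosylase), Cmklr1 (the chemerin receptor) and the ribosomal protein gene copy Rpl32l, had differences of 2.12, 2.04 and 2.16, and reads of Rpl32l could belong to near-identical copies.

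**Figure D3:**
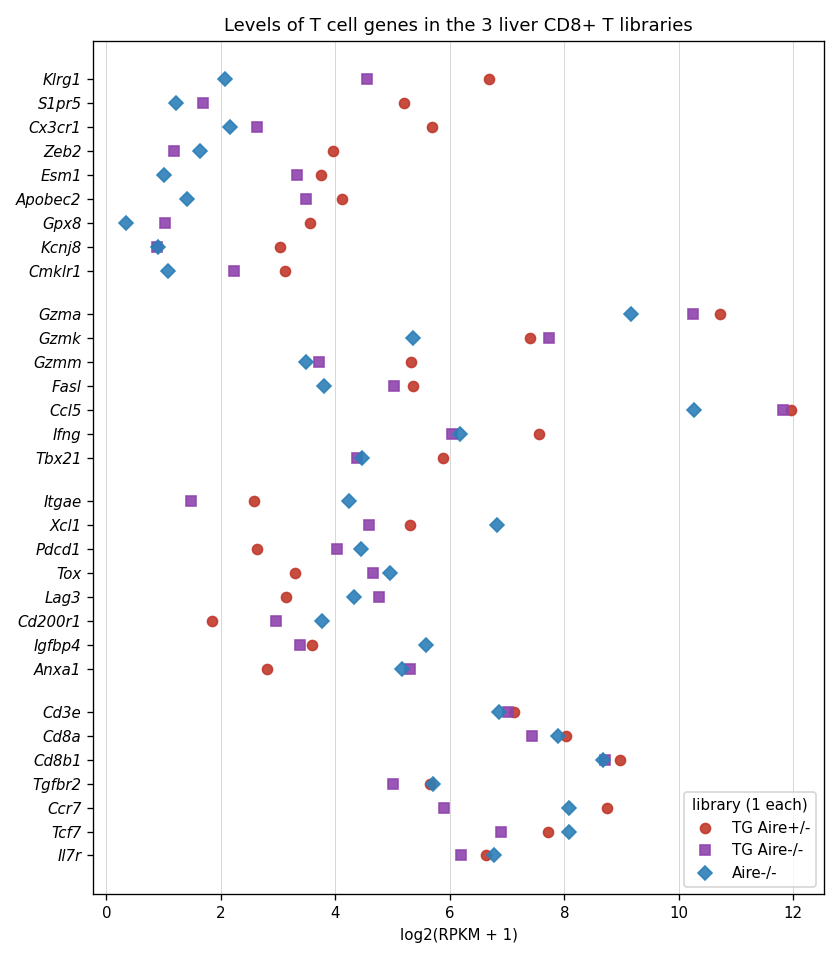
Levels of T cell genes as log2(RPKM + 1) in the 3 liver CD8+ T libraries, 1 point a library. Leading higher genes are on top, then cytotoxic genes and genes lower in TG Aire+/- cells. At the bottom are genes that did not reach a difference of 1 between TG Aire+/- and Aire-/- cells. The TG Aire+/- circle is rightmost for Klrg1, S1pr5 and Cx3cr1, and the Aire-/- diamond for Itgae, Xcl1, Pdcd1 and Tox.

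Several genes in the list of effector regulators and activation receptors were higher in TG Aire+/- cells. Of 27 genes of the list, 25 passed the minimum (3 through TG Aire+/- alone, among them Klrg1 and Zeb2), 6 were higher and 1 lower, with a median difference of 0.70 against 0.08 over all genes. The list's median was 0.56 over genes with at least 5 RPKM in both libraries. Tbx21, which encodes T-bet, the T-box factor of effector T cells, had 58.0 RPKM in TG Aire+/-, 19.7 in TG Aire-/- and 21.1 in Aire-/- cells, a difference of 1.42. Eomes, a T-box factor of memory and effector cells, had 39.1 RPKM in TG Aire+/-, 21.6 in TG Aire-/- and 23.8 in Aire-/- cells, a difference of 0.70 that did not reach 1. The TG Aire+/- library was highest for both T-box genes. Il18rap, a chain of the IL-18 receptor, had 50.6 RPKM in TG Aire+/-, 76.3 in TG Aire-/- and 13.6 in Aire-/- cells. Ly6a and Icos completed the higher genes of the list with differences of 1.16 and 1.02. Irf8, used by B and myeloid cells as well as T cells, was the lower gene, with a difference of -1.11. With a pseudocount of 5 in place of 1, Icos and Irf8 no longer reached 1.

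The genes of killing and effector cytokines held several of the most abundant transcripts. Of 23 genes in the list, 22 passed the minimum, 8 were higher and 1 lower, with a median difference of 0.71. Gzmk, a granzyme of memory and effector CD8+ T cells, had 167 RPKM in TG Aire+/-, 211 in TG Aire-/- and 40.0 in Aire-/- cells, a difference of 2.04 (chromosome 13, 113171608 to 113225908). Gzma had 1688 RPKM in TG Aire+/-, 1222 in TG Aire-/- and 575 in Aire-/- cells, a difference of 1.55. Ccl5, a chemokine of effector cells, had 3962 RPKM in TG Aire+/-, 3614 in TG Aire-/- and 1226 in Aire-/- cells, a difference of 1.69. For these abundant genes both TG libraries were above the Aire-/- library. Fas ligand (Fasl) had 39.8 RPKM in TG Aire+/-, 31.5 in TG Aire-/- and 12.9 in Aire-/- cells, and Serpinb9, the inhibitor that shields a killer cell from its own granzyme B, had 49.4 RPKM in TG Aire+/-, 57.6 in TG Aire-/- and 12.8 in Aire-/- cells. Gzmm had 39.2 RPKM in TG Aire+/-, 12.2 in TG Aire-/- and 10.2 in Aire-/- cells, a difference of 1.85. Ifng, encoding interferon-γ, had 187 RPKM in TG Aire+/-, 64.7 in TG Aire-/- and 71.3 in Aire-/- cells, a difference of 1.38. Gzmm and Ifng were thus highest in the TG Aire+/- library of the 3, and the TG Aire-/- library was close to the Aire-/- library. Gzmb and the perforin gene Prf1 did not reach a difference of 1. Gzmb had 694 RPKM in TG Aire+/-, 493 in TG Aire-/- and 412 in Aire-/- cells, and Prf1 had 44.4 RPKM in TG Aire+/-, 18.8 in TG Aire-/- and 22.9 in Aire-/- cells. Xcl1, a chemokine that attracts cross-presenting dendritic cells, went the other way, with 38.3 RPKM in TG Aire+/-, 23.2 in TG Aire-/- and 112 in Aire-/- cells, a difference of -1.53 (chromosome 1, 164931644 to 164935527).

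A few promoters of these genes are shown because Tbx21 was among the higher genes and each holds the core letters GGTGTGA of a T-box site, given in capitals. The letters were chosen after the values were seen. They come from RefSeq windows on GRCm38.p6 of 250 bases before to 50 after the gene's start, on the strand of the gene. In Gzmk and Gzmm the RefSeq start lies inside the longer GENCODE gene span. They were searched on both strands (TCACACC on the other), and 20 of the 23 genes had a window. A match was found in 5 of their 22 windows and in 3.98% of all 32851 windows. The genes with a match were Gzmk, Gzmm and Xcl1, shown here, and Nkg7 and Ctsc. A match is a run of letters and was not tested as a binding site.
Gzmk, chr13:113180916-113181215, minus strand: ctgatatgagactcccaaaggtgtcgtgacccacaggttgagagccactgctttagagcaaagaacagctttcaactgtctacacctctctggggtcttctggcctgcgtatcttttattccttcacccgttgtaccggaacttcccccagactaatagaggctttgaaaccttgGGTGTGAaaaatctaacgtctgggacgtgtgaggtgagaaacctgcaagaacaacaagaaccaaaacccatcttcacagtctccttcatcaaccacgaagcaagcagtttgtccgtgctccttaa
Gzmm, chr10:79693576-79693875, plus strand: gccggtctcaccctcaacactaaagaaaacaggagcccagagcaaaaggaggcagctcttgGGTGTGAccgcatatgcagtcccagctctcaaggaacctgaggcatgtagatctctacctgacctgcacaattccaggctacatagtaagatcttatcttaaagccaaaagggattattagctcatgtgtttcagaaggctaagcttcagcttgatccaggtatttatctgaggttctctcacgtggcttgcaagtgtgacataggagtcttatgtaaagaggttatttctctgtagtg
Xcl1, chr1:164935473-164935772, minus strand: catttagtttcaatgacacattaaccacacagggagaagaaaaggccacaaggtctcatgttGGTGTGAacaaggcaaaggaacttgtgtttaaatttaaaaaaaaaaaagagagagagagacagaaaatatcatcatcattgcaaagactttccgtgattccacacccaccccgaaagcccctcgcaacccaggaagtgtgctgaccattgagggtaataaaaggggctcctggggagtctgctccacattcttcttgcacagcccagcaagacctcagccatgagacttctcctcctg
The match lies 75 bases before the start in Gzmk, 189 in Gzmm and 188 in Xcl1, and the letters were in the promoters of genes on both sides of the comparison.

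Among receptors for chemokines and lipids and integrins, 26 of 30 genes passed the minimum (3 through TG Aire+/- alone, among them S1pr5 and Cx3cr1), 7 were higher and 0 lower, with a median of 0.61. The median was 0.53 over genes with at least 5 RPKM in both libraries. Besides S1pr5 and Cx3cr1 they included Itgax, Itgb1, Ccr2 and Gpr183. Itgax, the integrin chain CD11c of dendritic cells and activated CD8+ T cells, had 55.1 RPKM in TG Aire+/-, 9.41 in TG Aire-/- and 15.7 in Aire-/- cells. It was highest in the TG Aire+/- library. The part of macrophages, monocytes and dendritic cells in the level of Itgax was not tested. Itgb1, the β1 integrin chain, had 126 RPKM in TG Aire+/-, 111 in TG Aire-/- and 49.9 in Aire-/- cells, and Ccr2 had 28.3 RPKM in TG Aire+/-, 41.6 in TG Aire-/- and 11.4 in Aire-/- cells.

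Genes of naive and central memory cells were abundant in TG Aire+/- cells. Of 26 genes 24 passed the minimum, 0 were higher and 2 lower, with a median of -0.36. Over all genes 2.52% were higher and 3.0% lower. Ccr7, which guides cells to lymph nodes, had 426 RPKM in TG Aire+/-, 58.4 in TG Aire-/- and 271 in Aire-/- cells, and Tcf7, the transcription factor TCF-1, had 209 RPKM in TG Aire+/-, 117 in TG Aire-/- and 269 in Aire-/- cells. For both genes the TG Aire+/- and Aire-/- libraries stood above the TG Aire-/- library. The 2 lower genes were Igfbp4, a binding protein of insulin-like growth factors, with 11.1 RPKM in TG Aire+/-, 9.42 in TG Aire-/- and 46.9 in Aire-/- cells, and Treml2, with a difference of -1.10 that did not reach 1 in size with a pseudocount of 5.

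Several inhibitory receptors and the exhaustion regulator Tox were lower in TG Aire+/- cells. Of 16 genes in the list 14 were in the table, 12 passed the minimum, 0 were higher and 5 lower, with a median of -0.42. Pdcd1, encoding the inhibitory receptor PD-1, had 5.18 RPKM in TG Aire+/-, 15.2 in TG Aire-/- and 20.9 in Aire-/- cells, a difference of -1.82 (chromosome 1, 94038305 to 94052553). Tox had 8.79 RPKM in TG Aire+/-, 24.3 in TG Aire-/- and 30.1 in Aire-/- cells, a difference of -1.67. Lag3, a receptor for class II, had 7.77 RPKM in TG Aire+/-, 26.1 in TG Aire-/- and 19 in Aire-/- cells, a difference of -1.19, and Cd200r1 had 2.61 RPKM in TG Aire+/-, 6.81 in TG Aire-/- and 12.6 in Aire-/- cells. TG Aire+/- cells were lowest of the 3 libraries in all 4 genes. Cd244 had a difference of -1.03, and with a pseudocount of 5 Lag3 was at -0.91 and Cd244 at -0.74. Ctla4, another inhibitory receptor, had 41.4 RPKM in TG Aire+/-, 86.1 in TG Aire-/- and 40.8 in Aire-/- cells. Tigit had 47.2 RPKM in TG Aire+/-, 113 in TG Aire-/- and 64.7 in Aire-/- cells. Havcr2, of the same list, went the other way without reaching 1. It had 7.92 RPKM in TG Aire+/-, 14.7 in TG Aire-/- and 4.03 in Aire-/- cells, a difference of 0.83. Of the 12 genes that passed, 8 were below 0 in difference and 4 above.

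Among the listed genes tied to TGF-β, Itgae was the gene past a difference of 1. It had 5.00 RPKM in TG Aire+/-, 1.77 in TG Aire-/- and 18.0 in Aire-/- cells, a difference of -1.66 (chromosome 11, 73090583 to 73147446). Both libraries with the transgene were below the library without it. Of 26 genes of TGF-β receptors, Smads and target genes, 16 passed the minimum, 0 were higher and 1 lower, with a median of -0.07. The share lower over all genes was 3.0%, so 1 gene says little of the list. Smad7, an inhibitory Smad that the pathway induces, had 20.6 RPKM in TG Aire+/-, 7.14 in TG Aire-/- and 25.5 in Aire-/- cells. In the list of tissue residency, which also holds Itgae, 8 of 12 genes passed and Itgae was the 1 lower gene, beside 0 higher (2 lower under the common sum). Cxcr6, a chemokine receptor of liver-resident T cells, differed by -0.34, and Cd69 by 0.72.

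Proliferation genes held more higher calls than any other T cell list. Of 40 genes 39 passed the minimum, 9 of them only through the TG Aire+/- library, and 19 were higher and 0 lower. The median difference was 0.99, and 0.86 with libraries scaled to a common sum, under which 9 genes were higher. Hmgb2, a chromatin protein of dividing cells, had 133 RPKM in TG Aire+/-, 160 in TG Aire-/- and 53.4 in Aire-/- cells. Cyclin A2 (Ccna2) had 32.9 RPKM in TG Aire+/-, 70.7 in TG Aire-/- and 12.9 in Aire-/- cells, and Mki67, the Ki-67 antigen, had 63.3 RPKM in TG Aire+/-, 54.5 in TG Aire-/- and 30.9 in Aire-/- cells. The Aire-/- library was lowest in these 3 genes, but not in every gene of the list. Pcna had 218 RPKM in TG Aire+/-, 123 in TG Aire-/- and 130 in Aire-/- cells. Mcm4 had 47.7 RPKM in TG Aire+/-, 27.3 in TG Aire-/- and 34.0 in Aire-/- cells.

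Genes of the S100 and annexin families and the cytoskeleton split. Of 22 genes 21 passed the minimum, 5 were higher and 1 lower, with a median of 0.60 and with 3 higher under the common sum. Lgals1, encoding galectin-1, had 683 RPKM in TG Aire+/-, 710 in TG Aire-/- and 203 in Aire-/- cells, a difference of 1.75. S100a4, of migrating effector cells, had 146 RPKM in TG Aire+/-, 583 in TG Aire-/- and 58.3 in Aire-/- cells, a difference of 1.31. Anxa1, a lipid-binding protein abundant in neutrophils, was the lower gene, with 6.00 RPKM in TG Aire+/-, 38.6 in TG Aire-/- and 35 in Aire-/- cells. For Anxa1 both other libraries were above the TG Aire+/- library, and the part of neutrophils in its level was not tested.

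The lists that follow had few calls, and 2.52% of all genes were higher and 3.0% lower. In the T cell receptor list all 38 genes passed, 1 was higher and 0 lower. That gene was Cd28, the costimulatory receptor, with 133 RPKM in TG Aire+/-, 46.1 in TG Aire-/- and 55.5 in Aire-/- cells. Of 46 type I interferon genes 40 passed, 2 were higher (Ifi27l2a and Isg15) and 1 lower (Oasl2, which did not reach 1 in size with a pseudocount of 5), and under the common sum 2 were higher and 3 lower. Isg15, a ubiquitin-like protein, had 31.7 RPKM in TG Aire+/-, 0.990 in TG Aire-/- and 13 in Aire-/- cells. The TG Aire-/- library was thus far below both others for this gene. Interferon-γ inducible GTPases (14 of 16 passed) and class I presentation genes (16 of 16) had 0 genes past 1 on either side, and so had heat shock genes (12 of 14 passed). Of 39 immediate early genes 37 passed, 3 were higher and 1 lower, with a median of -0.01, and under the common sum 1 was higher and 2 lower. Fosb, an AP-1 subunit induced within minutes of stimulation or handling, had 181 RPKM in TG Aire+/-, 10.8 in TG Aire-/- and 76.9 in Aire-/- cells, and Nr4a1 had 277 RPKM in TG Aire+/-, 26.4 in TG Aire-/- and 127 in Aire-/- cells. The TG Aire-/- library was lowest in both. Of 36 respiratory chain genes, all of which passed, and of 19 cytokine receptor and JAK-STAT genes that passed, 0 were past 1. Casp1, the inflammatory caspase, with 15.1 RPKM in TG Aire+/-, 27.1 in TG Aire-/- and 4.61 in Aire-/- cells, was 1 of 2 higher genes among 22 of apoptosis and survival. Of 19 glycolysis genes 16 passed, with Slc16a1, a lactate and pyruvate transporter, higher at 1.27 and 0 lower.

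NK receptor genes went both ways, and 19 of 27 passed the minimum, 3 through TG Aire+/- alone (among them Klrb1f and Klra3) and 2 through Aire-/- alone. The 3 higher genes were Klrb1f, Klra3 and Slamf7, with differences of 1.42, 1.10 and 1.04, none of which reached 1 with a pseudocount of 5. Under the common sum 1 was higher and 4 lower. The 4 lower genes were Fcgr3, Tyrobp, Fcer1g and Klra5, with differences of -2.42, -1.86, -1.71 and -1.56. Fcgr3, Tyrobp and Fcer1g encode an Fc receptor and adaptor chains that myeloid cells also use. The myeloid sums above were lowest in TG Aire+/- cells. Fcer1g had 24.1 RPKM in TG Aire+/-, 19.1 in TG Aire-/- and 80.8 in Aire-/- cells. The part of myeloid cells in these genes was not tested. The list's median of 0.15 became -0.02 under the common sum, so no direction is given for it.

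**Figure D4:**
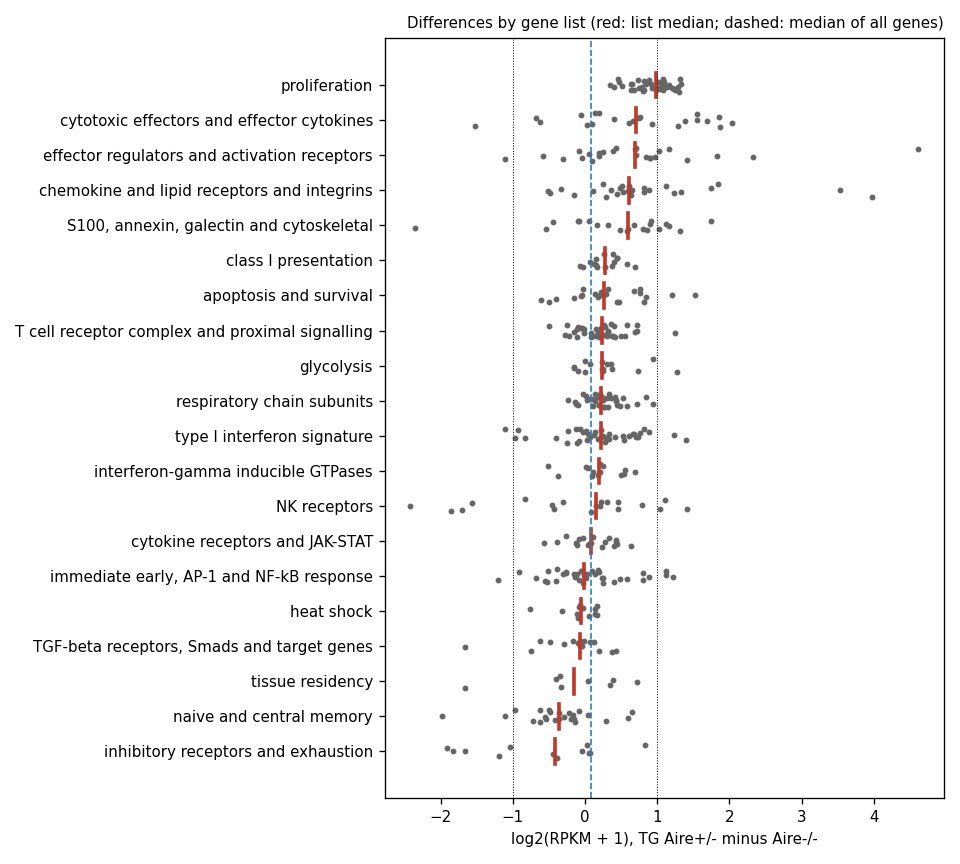
Difference of log2(RPKM + 1), TG Aire+/- minus Aire-/-, for the genes of each T cell list that passed the minimum (grey points), with the list's median (red bar), the median of all genes (dashed line) and a difference of 1 either way (dotted lines). Proliferation genes have the highest median at 0.99, and inhibitory receptors and exhaustion genes the lowest at -0.42.

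The leading lower genes outside the lists of other cells had under 3 RPKM in TG Aire+/- cells and were highest in the Aire-/- library. Dmbt1, a scavenger glycoprotein of epithelia, had 0.243 RPKM in TG Aire+/-, 0.483 in TG Aire-/- and 69.0 in Aire-/- cells. The eosinophil-associated ribonuclease (Ear) genes, of which the table has 9, summed to 1.75 RPKM in TG Aire+/-, 2.28 in TG Aire-/- and 126 in Aire-/- cells, and 6 of them were among the 12 leading lower genes. Reads of Ear genes can fall on near-identical copies, and Ear3 and Ear12 have the same values throughout the table. Prg2, the eosinophil major basic protein, had 0.646 RPKM in TG Aire+/-, 0.213 in TG Aire-/- and 52.4 in Aire-/- cells. Both were high in the Aire-/- library, and the part of eosinophils in the level of the Ear genes was not tested. Asprv1, a protease of neutrophils and skin, had 0.105 RPKM in TG Aire+/-, 5.26 in TG Aire-/- and 9.11 in Aire-/- cells. Alox5ap, needed for leukotriene synthesis in myeloid cells, had 2.78 RPKM in TG Aire+/-, 21.6 in TG Aire-/- and 30.6 in Aire-/- cells. Ifitm3, an antiviral membrane protein, had 1.35 RPKM in TG Aire+/-, 4.65 in TG Aire-/- and 25.3 in Aire-/- cells, and Slfn4, a Schlafen gene of myeloid cells, had 0.0988 RPKM in TG Aire+/-, 1.14 in TG Aire-/- and 11.1 in Aire-/- cells. For Asprv1 and Alox5ap, as for S100a9, both Aire-/- genotypes stood above the TG Aire+/- library. The part of myeloid cells in these levels was not tested. Reg1, a secreted protein of the exocrine pancreas, was listed at 0 in both TG libraries and had 10.8 RPKM in Aire-/- cells. Among lower genes with at least 5 RPKM in both libraries was Spry2, an inhibitor of receptor tyrosine kinase signalling chosen after its value was seen. It had 6.00 RPKM in TG Aire+/-, 10.6 in TG Aire-/- and 22.6 in Aire-/- cells.

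The thymus libraries, 3 a genotype, were read for the same leading genes as a description of another tissue. Of 13089 thymus genes with at least 1 RPKM in a library, every TG Aire+/- value was above every Aire-/- value in 5.62% and below it in 2.31%. Of the 12 leading higher genes 9 reached 1 RPKM in thymus, and the groups did not overlap in 2, both above. Klrg1 had 0.425 to 1.01 RPKM in TG Aire+/- and 0.0988 to 0.164 in Aire-/- thymus, and Tdg had 11.5 to 18.0 RPKM in TG Aire+/- and 2.66 to 6.12 in Aire-/- thymus. Of the 12 leading lower genes 11 reached 1 RPKM, with TG Aire+/- thymus above in 1 (Reg1) and below in 4 (Ear2, Ear3, Ear12 and Alox5ap). Itgae, no leading gene, had 0.783 to 1.58 RPKM in TG Aire+/- and 1.62 to 3.50 in Aire-/- thymus. Its lower side was thus the same in both tissues. Xcl1 had 2.14 to 2.78 RPKM in TG Aire+/- and 0.221 to 1.58 in Aire-/- thymus, opposite in side to liver CD8+ T cells.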

How the data were processed

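RNA was sequenced in bulk from CD8+ T cells sorted from liver, 1 library a genotype. The authors deposited RPKM values in 1 table of 24786 genes. The submitters' processing notes list STAR 2.5.2b and mm10. Neither the counting tool nor the annotation is given in the labels or file headers used here. Libraries were made by Illumina or BGI protocols, per the labels' protocols, without saying which. Depth, inferred from the steps between low RPKM values, came to 21800000 reads in TG Aire+/-, 21000000 in TG Aire-/- and 22000000 in Aire-/- cells. At those depths 52.4% to 55.9% of low values were whole reads within 0.1 read, where chance gives 20%, too few to recover reads. A total of 3 reads on a gene of 2000 bases is 0.0682 to 0.0714 RPKM, which covers counting error only.

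From the deposited RPKM, log2(RPKM + 1) was taken with Python 3.11.15 and pandas 2.3.3, with a pseudocount of 1 that understates differences of low genes. Genes needed 5 RPKM in 1 of the 2 libraries, and a difference of 1 (a fold of 2 on that scale) was the call. No test was made. Named genes were check genes, the 12 leading genes each way (outside the lists of other cells, globin, immunoglobulin, Mup and Cyp genes and unnamed models), up to 5 members each way of each T cell list past 1 or else its 2 most abundant, and the 3 most abundant of each other list. Some of these genes are not reported here, and further genes were chosen after their values were seen. The comparison, the members and the 31 lists were chosen with earlier results of these data known. Positions are GENCODE vM21 on GRCm38, the assembly that mm10 names. In simulated data with known changes the procedure was checked.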

Additional observations from a re-analysis of the deposited data

Results flagged for a closer look

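Reg1, a secreted protein of the exocrine pancreas, went opposite ways in the 2 tissues. In liver CD8+ T cells it was listed at 0 in TG Aire+/- and TG Aire-/- cells and had 10.8 RPKM in Aire-/- cells, a difference of -3.56. In thymus every TG Aire+/- library, at 0.939 to 1.48 RPKM, was above every Aire-/- library, at 0 to 0.207 RPKM. The difference between the tissues was not tested, and the liver side rests on 1 library each. The Aire-/- CD8+ T library also held the erythroid and granulocyte RNA given above, and whether Reg1 came with it was not tested.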

How the results depend on the processing

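The main counts were 189 genes higher and 225 lower. A pseudocount of 5 left 83 higher. A minimum of 1 RPKM, or none, gave 514 lower, and one of 10 gave 128 lower. A common sum over genes outside the lists of other cells gave 124 higher (31.1% of calls, against 45.7% of the main calls). Setting aside genes of other cells gave 137 lower. Requiring 5 RPKM in both libraries, chosen after seeing the data, gave 103 higher and 54 lower. A difference of 2 gave 16 higher and 133 lower. The hepatocyte list's median of -1.20 became 0.39 with a minimum of 10 RPKM and 0.18 with 5 RPKM in both libraries, since fewer genes were left. Of 217 named genes, 20 no longer reached 1 with a pseudocount of 5, and 8 under the common sum, which brought 3 others past it. Mki67 was at 0.93 with a pseudocount of 5, and at 0.87 under the common sum. No paired analysis was possible because each genotype has 1 library, and leaving out a replicate was not possible for the same reason. At the inferred depths of 21000000 to 22000000 reads, levels near 0.07 RPKM rest on a few reads.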

Other observations

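Against 3.0% lower and 2.52% higher over all genes, counts in other gene groups were as follows. Many histone genes were lower in TG Aire+/- cells: of 15 that passed the minimum, 9 were lower and 0 higher, with a median difference of -1.20. Hist1h2ap had 31.2 RPKM in TG Aire+/-, 42.3 in TG Aire-/- and 171 in Aire-/- cells. Of 66 snoRNA genes that passed, 10 were lower and 0 higher, and of 77 ribosomal protein genes 4 were lower and 2 higher. The labels do not say which protocol each library had, and its part in the histone and snoRNA values was not tested.

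The metallothionein genes Mt1 and Mt2, whose products bind zinc and copper, were higher and were chosen after their values were seen. Mt1 had 37.2 RPKM in TG Aire+/-, 115 in TG Aire-/- and 9.22 in Aire-/- cells, and Mt2 had 17.9 RPKM in TG Aire+/-, 56.2 in TG Aire-/- and 5.48 in Aire-/- cells. For both, the TG Aire-/- library was highest and the Aire-/- library lowest.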
